A study of Mus musculus with 16 samples.

Results

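The 10 genes described here take up, store, export or sense iron or serve mitochondrial heme synthesis. They are *Tfrc*, *Steap3*, *Slc11a2*, *Slc25a37*, *Slc25a38*, *Fth1*, *Ftl1*, *Slc40a1*, *Ireb2* and *Aco1*, were chosen by symbol, and were all found among the 15386 genes of the RNA-seq table and the 13490 genes of the m6A table. RNA-seq compared 3 libraries of control CFU-E cells with 3 that the labels give as *Mettl3*-deficient, Kit-low CFU-E, here called the Kit-lo libraries, all sorted from the bone marrow of adult mice. CFU-E cells are committed erythroid progenitors, and Kit, the receptor for stem cell factor, was very low on the surface of these Kit-low cells. *Mettl3*, the catalytic subunit of the enzyme that writes m6A (N6-methyladenosine) on mRNA, was deleted in Mettl3 fl/fl EpoR Cre/- mice. Their EpoR-tdTomato-Cre allele acts in erythroid cells but also in macrophages of erythroblastic islands and partly in hematopoietic stem cells. All mice had a C57BL/6 background and both sexes were used, but the genotype of the controls, their sex and age by library, and whether animals were pooled are not given in the sources used here. The m6A experiment had 2 immunoprecipitated (IP) and 2 input libraries from control CFU-E cells only.

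The Kit-lo and control groups differed in genotype and in the Kit level of the sorted cells. The study also reported anemia and raised blood erythropoietin in the *Mettl3*-deficient mice. These differences cannot be told apart here. CPM are counts scaled to library size. *Mettl3* mRNA was at 123 ± 7.43 CPM (SD, n = 3) in control and 117 ± 9.52 CPM (SD, n = 3) in Kit-lo libraries, with an adjusted p of 0.634 by edgeR, so that the directions below rest on the labels. *Kit* was at 598 ± 47.1 CPM (SD, n = 3) in control and 55.2 ± 12.4 CPM (SD, n = 3) in Kit-lo libraries. The total counts ran from 17429262 to 21329242 per RNA-seq library and from 19421059 to 37142742 per m6A library, with the highest total in IP replicate 1. Of 14 erythroid markers, 10 were called higher in Kit-lo libraries by edgeR, and their summed level was 3768 to 4030 CPM in control and 8056 to 9770 CPM in Kit-lo libraries. The markers with the largest differences were mature red cell genes such as *Slc4a1*, the anion exchanger, which was at 1.85 CPM in control and 288 CPM in Kit-lo libraries. In RNA-seq, the summed levels of other cell types were low. They were 18.5 to 33.1 CPM for 14 macrophage markers and 16.5 to 40.3 CPM for 10 granulocyte and monocyte markers. They were at most 29.5 CPM for 6 megakaryocyte, 3.88 CPM for 7 lymphoid and 5.10 CPM for 4 mast cell and basophil markers. In the m6A libraries the highest such sum was that of 7 lymphoid markers, at 16.0 to 46.5 CPM. Most of it came from *Nkg7*, at 28.2 and 42.6 CPM in input and 14.3 and 15.7 CPM in IP. The other lymphoid markers were each at most 2.87 CPM in these libraries. In bulk samples, fewer cells of a type and less RNA per cell cannot be told apart.

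Erythroid progenitors take up more iron than almost any other cell, because hemoglobin needs heme. Iron-loaded transferrin binds the transferrin receptor, is carried into endosomes, and releases ferric iron that Steap3 reduces and Slc11a2 (DMT1) passes to the cytosol. Slc25a37 (mitoferrin-1) brings iron into mitochondria, Slc25a38 carries glycine there for the first step of heme synthesis, ferritin built of Fth1 and Ftl1 chains stores what is not used, and Slc40a1 (ferroportin) exports it. Ireb2 (IRP2) and Aco1 (IRP1) bind stem-loops called iron-responsive elements (IREs) when iron is low. Binding in a 5′ UTR blocks translation and binding in a 3′ UTR protects the mRNA from decay.

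The IREs are shown because they set these transcripts apart from other mRNAs. The UTRs of GRCm38 (mm10) were searched on the transcript's strand for a C, then 5 bases, the loop CAGTGN whose last base is not G, and 5 bases that pair with the first 5, G with T allowed. In the annotated 5′ UTRs 21 of 20890 genes (0.101%) and in the 3′ UTRs 98 of 20998 genes (0.467%) held this pattern. Among the 10 genes it was found in *Tfrc*, *Fth1*, *Ftl1* and *Slc40a1*. No match was found in the annotated UTRs of the other 6. An element with another stem or loop would be missed, so that no match does not mean no IRE. Of the transcripts given below as known to carry an IRE, *Alas2* held a match and *Cdc42bpa* did not. The sequences are written 5′ to 3′ on the transcript's strand, with the loop in capitals. Lower case holds the 5 paired bases on each side of the loop, the C, and flanking bases. Pairing of the flanking bases was not checked.
Tfrc 3′ UTR, chr16:32631219-32631247 (+): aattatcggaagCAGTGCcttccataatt
Tfrc 3′ UTR, chr16:32631598-32631626 (+): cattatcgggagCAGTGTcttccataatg
Tfrc 3′ UTR, chr16:32631663-32631691 (+): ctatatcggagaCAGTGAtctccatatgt
Tfrc 3′ UTR, chr16:32631710-32631738 (+): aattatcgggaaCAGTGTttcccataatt
Fth1 5′ UTR, chr19:9982732-9982760 (+): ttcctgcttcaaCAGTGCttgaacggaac
Ftl1 5′ UTR, chr7:45459779-45459807 (-): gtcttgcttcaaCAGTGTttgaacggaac
Slc40a1 5′ UTR, chr1:45925465-45925493 (-): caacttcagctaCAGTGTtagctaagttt
*Tfrc* held 4 such elements and the others 1 each. A match is a run of letters and says nothing of binding in these cells.

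In RNA-seq, 4 of the 10 iron genes were called higher in the Kit-lo libraries, namely *Slc25a37*, *Steap3*, *Slc25a38* and *Ftl1*. To be called, a gene had to differ at least 1.5-fold with an adjusted p under 0.05, by the quasi-likelihood test of edgeR adjusted by Benjamini and Hochberg's method over the 11979 genes tested, and 12.1% of those genes were called higher. None of the 10 was called lower by edgeR or by DESeq2 (0 of 10), against 9.83% of tested genes, while 1 was lower at an unadjusted p under 0.05. Without the condition on fold, the adjusted p-value was under 0.05 for 5 of 10 higher and 1 of 10 lower, against 17.6% and 16.9% of tested genes. The groups did not overlap in 6 of 10 genes that were higher in Kit-lo and in 1 that was lower, against 23.5% and 24% of tested genes. The median log2 fold change was 0.32 over the 10 genes and 0.01 over all tested genes.

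**Figure D1:**
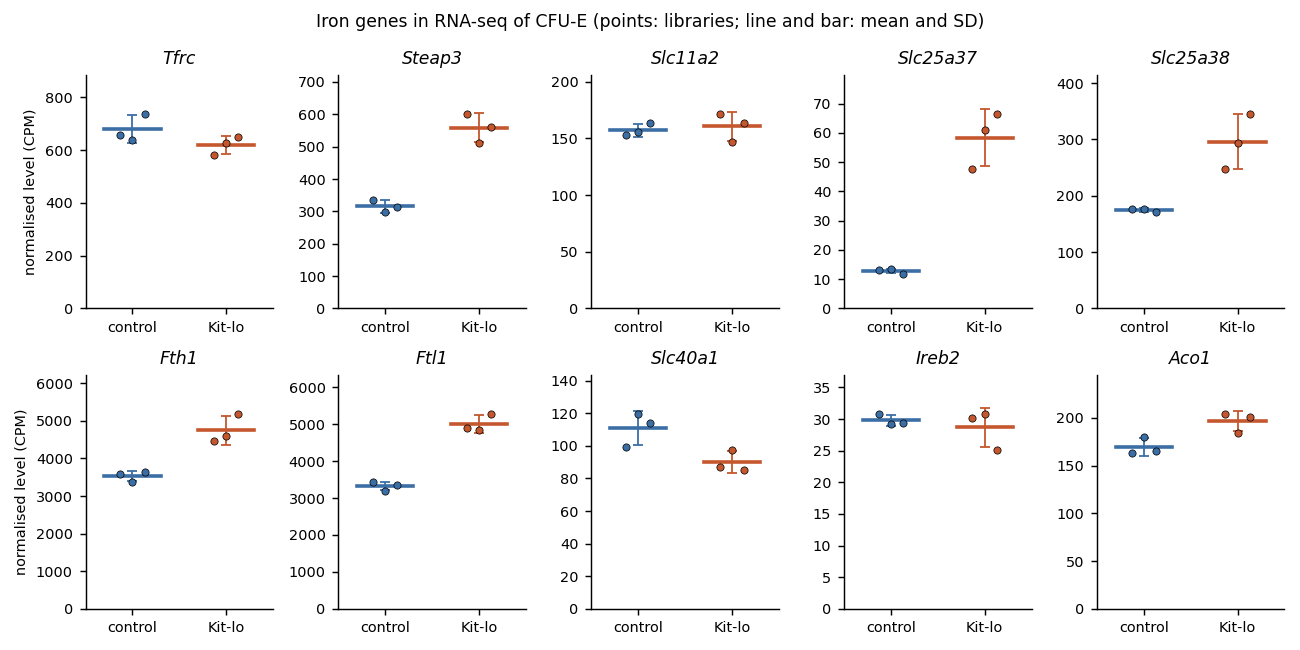
Level of each iron gene in CPM (vertical axes, starting at 0) in the 3 control and 3 Kit-lo RNA-seq libraries, with points for libraries and a line and bar for mean and SD. *Slc25a37* lies at 11.9 to 13.3 CPM in control and 47.7 to 66.7 CPM in Kit-lo libraries, while the points of *Tfrc*, *Slc11a2* and *Ireb2* overlap between the groups.

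Ranked by level per kilobase of annotated coding transcript, ferritin stood far above the rest. In control libraries the order was *Ftl1* (4524 ± 156 CPM per kb, SD, n = 3), *Fth1* (3802 ± 156), *Tfrc* (201 ± 15.7), *Steap3* (109 ± 6.75), *Slc25a38* (97.6 ± 1.71), *Aco1* (44.3 ± 2.47), *Slc11a2* (42.3 ± 1.53), *Slc40a1* (32.9 ± 3.12), *Ireb2* (5.16 ± 0.150) and *Slc25a37* (3.06 ± 0.181). The libraries of *Aco1* and *Slc11a2* overlapped, and all other neighbours in that order were separate. In Kit-lo libraries *Slc25a37* (14.0 ± 2.32 CPM per kb, SD, n = 3) stood above *Ireb2* (4.97 ± 0.538) without overlap. *Steap3* (193 ± 15.6), *Tfrc* (183 ± 10.2) and *Slc25a38* (165 ± 27.3) overlapped each with the next there. In control libraries, without division by length, *Fth1* and *Ftl1* changed places and no other gene did.

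*Tfrc*, the transferrin receptor, lies on chromosome 16 of GRCm38 from 32608920 to 32632794. Its protein is CD71, which was used to sort CFU-E cells in both groups. It was at 658, 639 and 739 CPM in control replicates 1 to 3 and at 581, 627 and 648 CPM in Kit-lo replicates 1 to 3, so that the groups overlapped. On the log2 scale Kit-lo over control was -0.13 (standard error 0.082, edgeR adjusted p = 0.248).

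*Steap3*, the ferrireductase of erythroid endosomes, lies on chromosome 1 from 120190757 to 120272705. It was at 336, 297 and 313 CPM in control and 603, 512 and 561 CPM in Kit-lo libraries, and every Kit-lo library was above every control library. The rise was 1.77-fold, a log2 fold change of 0.83 (standard error 0.086, edgeR adjusted p = 6.98e-05), and it was called under all 15 alternatives run.

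*Slc11a2*, the endosomal iron transporter DMT1 on chromosome 15 from 100387898 to 100425072, was at 153, 156 and 164 CPM in control and 172, 147 and 164 CPM in Kit-lo libraries. The groups overlapped, and their log2 difference was 0.03 (standard error 0.088, edgeR adjusted p = 0.83). Of its exonic bases, 6.33% overlap *Gm5475* on the opposite strand, and use of strand in the counting was not stated. The endosomal pathway thus showed a rise of the reductase with no detected change of receptor or transporter mRNA.

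*Slc25a37*, mitoferrin-1, lies on chromosome 14 from 69241848 to 69285112 and changed most of the 10 genes. It was at 13.1, 13.3 and 11.9 CPM in control and 47.7, 60.9 and 66.7 CPM in Kit-lo libraries, with no overlap. The means of 12.8 ± 0.756 and 58.4 ± 9.70 CPM (SD, n = 3 each) gave a 4.57-fold rise, a log2 fold change of 2.19 (standard error 0.155, edgeR adjusted p = 7.43e-06). Over the 15 alternatives the log2 fold change ran from 2.10 to 2.32 and the call was kept. Of its exonic bases, 6.33% overlap *Gm27223* and *Gm31748* on the opposite strand. *Slc25a28*, mitoferrin-2 and its paralog, was at 3.77 ± 0.886 CPM in control and 6.06 ± 0.133 CPM in Kit-lo libraries (SD, n = 3), which was not called (edgeR adjusted p = 0.0886).

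*Slc25a38*, the mitochondrial glycine carrier, lies on chromosome 9 from 120110374 to 120124504. It was at 177, 176 and 171 CPM in control and 248, 294 and 346 CPM in Kit-lo libraries, which did not overlap. The rise was 1.69-fold, or 0.76 on the log2 scale (standard error 0.113, edgeR adjusted p = 0.000635). The call was lost when the test was made against the fold of 1.5 itself (adjusted p = 0.161). In control libraries *Slc25a38* counts were 13.5, 13.2 and 14.4 times those of *Slc25a37*, and in Kit-lo libraries 5.20, 4.83 and 5.19 times. This ratio did not overlap between the groups, with a two-sided exact permutation p of 0.1, the smallest that 3 against 3 libraries allow.

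*Fth1*, the ferritin heavy chain with the ferroxidase site, lies on chromosome 19 from 9980598 to 9985098. It was at 3578, 3370 and 3648 CPM in control and 4476, 4594 and 5188 CPM in Kit-lo libraries, with every Kit-lo library above the controls. The 1.35-fold difference passed the edgeR test (log2 fold change 0.43, standard error 0.078, adjusted p = 0.0021) but not the fold threshold.

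*Ftl1*, the ferritin light chain that helps form the iron core, lies on chromosome 7 from 45457944 to 45459884. It was at 3422, 3200 and 3361 CPM in control and 4902, 4835 and 5283 CPM in Kit-lo libraries, again with no overlap. Its fold of 1.504 and log2 fold change of 0.59 (standard error 0.070, edgeR adjusted p = 0.00016) passed the fold threshold, a log2 of 0.585, by a very small margin. Without control replicate 2 or Kit-lo replicate 3 the log2 fold change was 0.55 and 0.56 and *Ftl1* was no longer called. Of its 31-base words, 64.1% occur in 33 other genes, mostly pseudogenes such as *Ftl1-ps1*, and 26.5% of its exonic bases overlap *Gm10252* on the opposite strand, so that its counts are uncertain.

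Both chains together took 7000, 6570 and 7009 CPM in control and 9378, 9429 and 10471 CPM in Kit-lo libraries. The ratio of *Fth1* to *Ftl1* was 1.05, 1.05 and 1.09 in control and 0.913, 0.950 and 0.982 in Kit-lo libraries. Neither the sum nor the ratio overlapped between the groups, with a two-sided exact permutation p of 0.1 for each.

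*Slc40a1*, the iron exporter ferroportin on chromosome 1 from 45908068 to 45926523, was the single gene of the 10 with all Kit-lo libraries below the controls. It was at 99.3, 120 and 114 CPM in control and 87.3, 97.4 and 84.9 CPM in Kit-lo libraries. The log2 fold change of -0.30 (standard error 0.105, edgeR adjusted p = 0.0469) did not reach the fold threshold. The adjusted p was over 0.05 when any 1 of 5 libraries was left out (0.0554 to 0.158, all libraries but control replicate 1) and with library sizes alone (0.111). Iron-recycling macrophages also express this gene, and the CFU-E gate left out cells positive for CD11b, among other lineage markers, or for CD16/32. The 14 macrophage markers summed to 27.4, 28.4 and 33.1 CPM in control and 18.5, 18.5 and 24.3 CPM in Kit-lo libraries, with 2 of 9 tested called lower, and *Cd163*, the haptoglobin-hemoglobin receptor, the highest in the controls at 13.5 ± 0.658 against 6.36 ± 1.43 CPM (SD, n = 3). The others did not all lie lower, with *Lyz2* at 1.53 and 3.93 CPM and *Cd68* at 4.27 and 4.66 CPM in control and Kit-lo libraries, neither called. *Adgre1*, which encodes F4/80, was at 0 in all Kit-lo libraries and at most 0.115 CPM in controls. The part of these cells in the *Slc40a1* result was not tested.

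Among the sensors, *Ireb2* on chromosome 9 from 54863789 to 54912530 was at 30.8, 29.2 and 29.4 CPM in control and 30.1, 30.8 and 25.1 CPM in Kit-lo libraries. The groups overlapped (log2 fold change -0.05, standard error 0.133, edgeR adjusted p = 0.79). *Aco1* on chromosome 4 from 40143081 to 40198338 was at 163, 181 and 166 CPM in control and 204, 185 and 201 CPM in Kit-lo libraries. Its Kit-lo libraries lay above the controls, but the log2 fold change of 0.21 (standard error 0.084, edgeR adjusted p = 0.074) was not called. The ratio of *Aco1* to *Ireb2* was 5.70 ± 0.445 in control and 6.93 ± 1.02 in Kit-lo libraries (SD, n = 3) and overlapped (two-sided exact permutation p = 0.2).

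**Figure D2:**
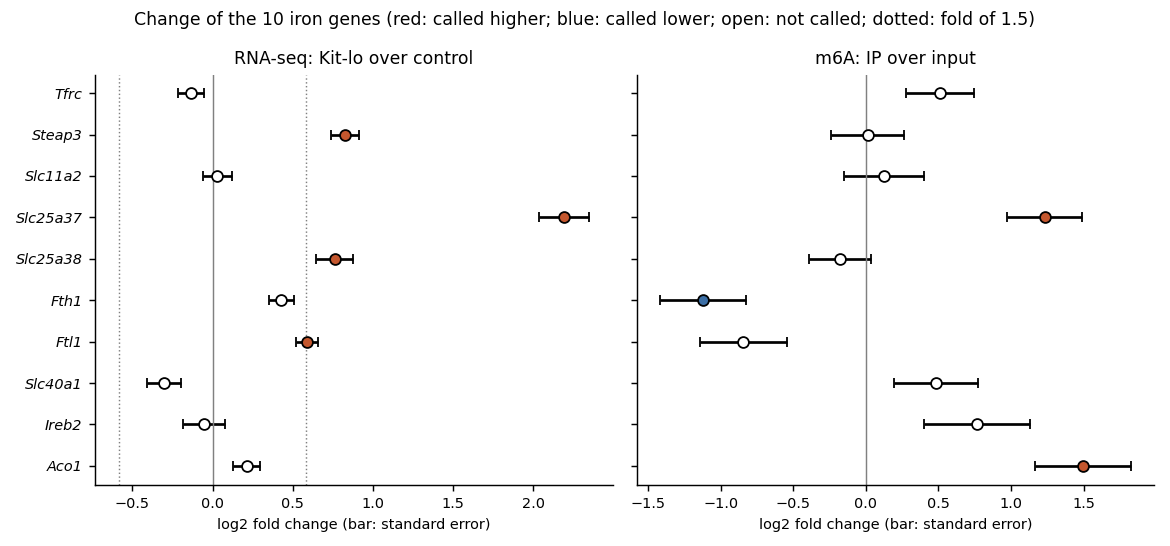
Log2 fold change of each iron gene (points, with standard errors as bars) for Kit-lo over control in RNA-seq (left) and IP over input in the m6A experiment (right). *Slc25a37* is called higher in both panels, and *Fth1* lies at 0.43 on the left and is called lower at -1.12 on the right.

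The other genes of iron handling were taken from 6 lists. Of their 66 tested genes edgeR called 12 higher (18.2%) and 5 lower (7.58%), beside the 12.1% and 9.83% of all tested genes, and DESeq2 also called 12 and 5. Testing against the fold of 1.5 left 6 and 1, beside 665 higher and 482 lower of all 11979 tested genes. Of 14 tested genes of uptake, traffic and reduction, 1 was called higher and none lower. This was *Tmem14c*, a carrier of heme precursors, at 488 ± 6.33 CPM in control and 832 ± 155 CPM in Kit-lo libraries (SD, n = 3). Transferrin itself (*Trf*), made mainly by the liver, was at 1.2 and 0.838 CPM and *Hfe*, a partner of the transferrin receptors, at 0.757 and 1.31 CPM. *Tfr2*, the second transferrin receptor, was at 300 ± 1.07 CPM in control and 277 ± 29.4 CPM in Kit-lo libraries (edgeR adjusted p = 0.373).

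Of 7 tested genes of ferritin turnover and iron chaperones, 1 was called higher and none lower. It was *Ncoa4*, the cargo receptor that delivers ferritin to lysosomes, which was at 99.5, 120 and 106 CPM in control and 198, 220 and 225 CPM in Kit-lo libraries. Its rise was 1.98-fold (log2 fold change 0.98, standard error 0.098, edgeR adjusted p = 5.28e-05), with no overlap of the groups. *Fbxl5*, the iron-binding ligase subunit that marks Ireb2 for degradation, was at 28.1 ± 1.99 and 29.8 ± 2.47 CPM (SD, n = 3, edgeR adjusted p = 0.661).

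Of 10 tested genes of iron and heme export and recycling, 3 were called higher and none lower. *Abcb6*, a porphyrin transporter, rose from 160 ± 4.65 to 451 ± 37.2 CPM and *Abcb10*, a mitochondrial transporter that binds mitoferrin-1, from 166 ± 10.6 to 461 ± 46.5 CPM (SD, n = 3), rises of 2.82-fold and 2.77-fold. *Hmox2*, the constitutive heme oxygenase, rose by 0.63 on the log2 scale. *Hmox1*, the inducible one, was at 1.58 and 1.76 CPM and was not called. Of 2 tested genes of systemic iron control, *Erfe*, the erythroid hormone that lowers hepcidin, was at 1.05, 1.66 and 3.09 CPM in control and 30.4, 20.0 and 50.01 CPM in Kit-lo libraries (log2 fold change 4.12, edgeR adjusted p = 7.1e-05). *Bmpr2*, a receptor for bone morphogenetic proteins, fell from 9.60 to 4.82 CPM.

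Of 29 tested genes of iron-sulfur cluster assembly, 5 were called higher and 3 lower. The higher ones were led by *Fdx1l*, *Glrx5*, *Nubp2* and *Ndor1*, with log2 fold changes of 1.19, 1.04, 0.76 and 0.75, and the lower ones were *Hscb*, *Lyrm4* and *Fdx1* at -1.07, -0.93 and -0.62. *Glrx5* was at only 4.70 CPM in RNA-seq control libraries but at 1621 CPM in SLIM-seq input, 345-fold apart, so that its level is uncertain. Of 4 other transcripts known to carry an IRE, *Alas2*, the first enzyme of erythroid heme synthesis, rose from 2.89 ± 1.42 to 137 ± 49.97 CPM (SD, n = 3), and *Cdc42bpa*, a kinase, fell by 0.79 on the log2 scale. The erythroid markers given above rose in the same libraries as these genes, and their part in the changes was not tested.

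**Figure D3:**
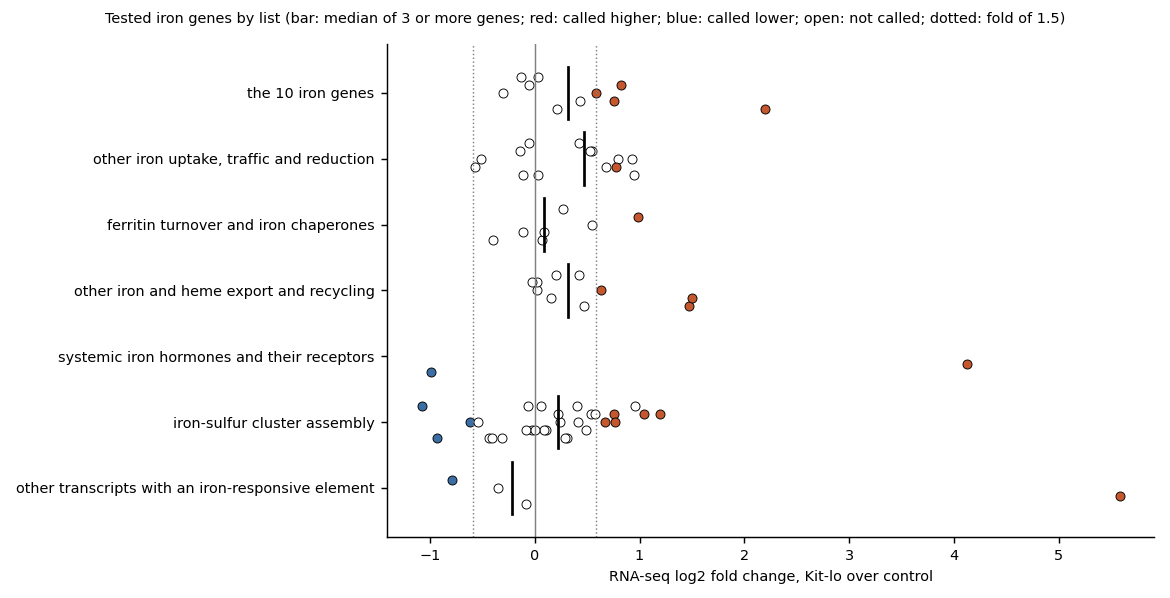
RNA-seq log2 fold change of Kit-lo over control (horizontal axis) for every tested gene of the 10 iron genes and of 6 other iron lists (rows), with dotted lines at a fold of 1.5 and bars at the medians. Most points lie between the dotted lines, and *Alas2* and *Erfe* lie farthest to the right at 5.58 and 4.12.

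By the Euclidean distance of centred log2 CPM over the 6 RNA-seq libraries, the genes with the pattern closest to *Tfrc* were *Wdr82*, *Chfr* and *Gid4*, at distances of 0.064, 0.078 and 0.085. Those closest to *Slc25a37* were *Sds*, *Ak1* and *Samd4*, at 0.228, 0.285 and 0.308. *Ak1*, an adenylate kinase, was at 8.36 to 9.67 CPM in control and 39.2 to 47.0 CPM in Kit-lo libraries, while *Sds* was under 1 CPM in all 6.

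In the m6A experiment, 2 of the 10 genes, *Slc25a37* and *Aco1*, were called enriched in IP over input of control CFU-E cells. An enriched gene had a log2 fold change above 0 and an adjusted p-value under 0.05 over the 11447 genes tested by edgeR, and 7.9% of those genes were called enriched. *Fth1* was the 1 gene called lower in IP, against 7.86% of tested genes. IP and input did not overlap in 5 of 10 genes that were higher and in 3 that were lower, against 32.2% and 28.7% of tested genes. The median log2 fold change was 0.31 over the 10 genes and 0.06 over all tested genes. The calls depended on single libraries, and calls over all tested genes also fell or rose in number with the library left out. Without input replicate 1 all 3 calls were lost (edgeR adjusted p of 0.135 for *Slc25a37*, 0.160 for *Fth1* and 0.0822 for *Aco1*), without input replicate 2 *Fth1* was lost, without IP replicate 1 *Aco1* was lost, and without IP replicate 2 *Ireb2* joined the enriched and *Ftl1* the lower genes.

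**Figure D4:**
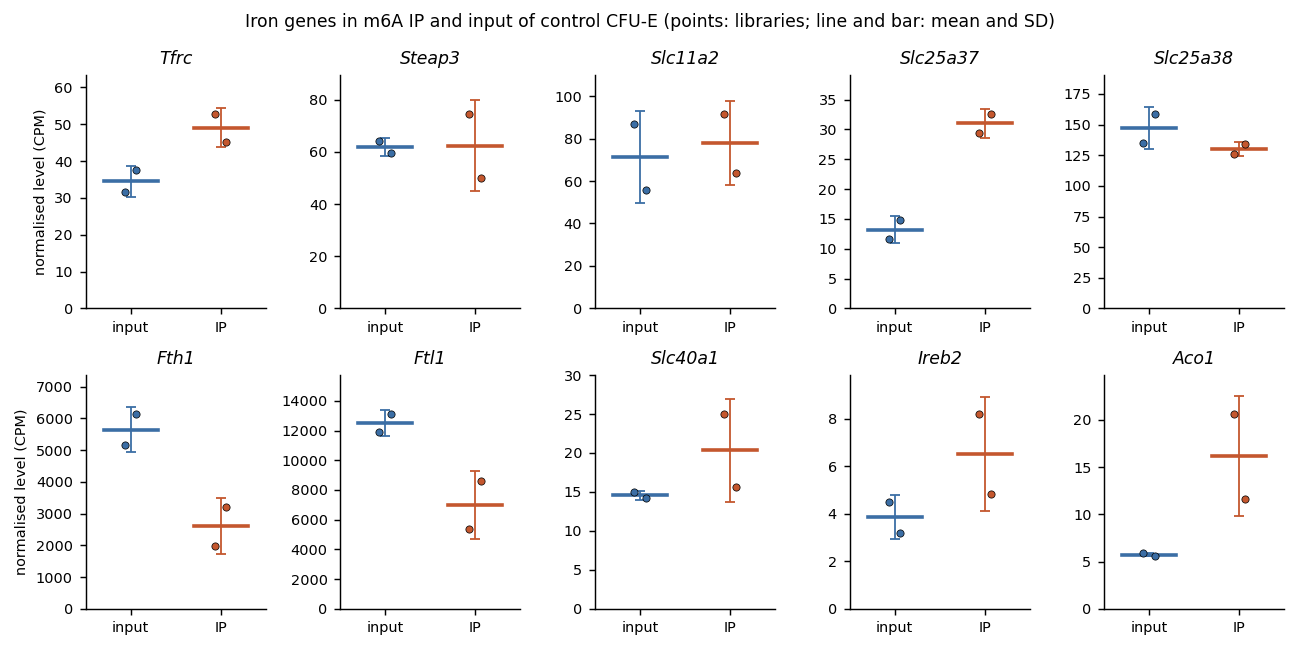
Level of each iron gene in CPM (vertical axes, starting at 0) in the 2 input and 2 IP libraries of control CFU-E cells, with points for libraries and a line and bar for mean and SD. *Slc25a37* and *Aco1* are higher in both IP libraries and *Fth1* and *Ftl1* lower, and the IP libraries of *Aco1* lie at 20.6 and 11.7 CPM.

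*Slc25a37* was at 11.6 and 14.8 CPM in input and 29.3 and 32.7 CPM in IP replicates 1 and 2. The 2.35-fold enrichment (log2 fold change 1.23, standard error 0.258, edgeR adjusted p = 0.0106) was larger than the spread between replicates. *Aco1* was at 5.86 and 5.62 CPM in input and 20.6 and 11.7 CPM in IP, a 2.82-fold enrichment (log2 fold change 1.497, standard error 0.329, edgeR adjusted p = 0.0132) with a wide spread of the IP libraries. *Ireb2*, the other sensor, was at 4.50 and 3.20 CPM in input and 8.20 and 4.82 CPM in IP (log2 fold change 0.76, standard error 0.366, edgeR adjusted p = 0.18). Its counts were 57 to 342 per library, the lowest of the 10.

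The ferritin chains were lower in IP. *Fth1* was at 5153 and 6141 CPM in input and 1978 and 3220 CPM in IP, a log2 fold change of -1.12 (standard error 0.295, edgeR adjusted p = 0.0297). *Ftl1* was at 11873 and 13127 CPM in input and 5356 and 8586 CPM in IP, a log2 fold change of -0.84 (standard error 0.302, edgeR adjusted p = 0.0831). GGACT, a frequent m6A motif, was counted on the transcript strand of the longest coding transcript. *Fth1* has 0 copies per kb, *Ftl1* 1.03, *Slc25a37* 1.92 and *Aco1* 1.57, against a median of 1.03 per kb over tested genes. Of the other genes, none called in IP, *Slc40a1* has 1.78, *Tfrc* 1.23 and *Steap3* 1.16 per kb. *Slc11a2* has 0.906, *Ireb2* 0.693 and *Slc25a38* 0.558 per kb. Across 11419 genes, which are not independent, Spearman's rho between IP enrichment and GGACT density was -0.07.

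The uptake genes showed no called enrichment. *Tfrc* was at 31.5 and 37.5 CPM in input and 52.9 and 45.3 CPM in IP, without overlap (log2 fold change 0.51, standard error 0.236, edgeR adjusted p = 0.167). *Steap3* was at 64.3 and 59.4 CPM in input and 74.7 and 49.9 CPM in IP, and *Slc11a2* was at 86.7 and 55.9 CPM in input and 91.8 and 63.7 CPM in IP, both overlapping. *Slc25a38* was at 135 and 159 CPM in input and 126 and 134 CPM in IP, and *Slc40a1* at 15.0 and 14.2 CPM in input and 25.03 and 15.7 CPM in IP. None of these 5 passed the edgeR test, with adjusted p-values from 0.167 to 0.981. Of 64 tested genes of the other iron lists, 6 were called enriched (9.38%) and 3 lower (4.69%), beside 7.9% and 7.86% of all tested genes. *Fbxl5*, *Abcb10*, *Lyrm4*, *Mms19*, *Hspa9* and *Cdc42bpa* were enriched, with log2 fold changes of 1.49, 0.99, 1.15, 1.13, 0.88 and 2.46, and *Glrx5*, *Pcbp1* and *Iba57* lower, with -3.28, -2.68 and -1.34.

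Set side by side, *Slc25a37* was the gene of the 10 that was called higher in Kit-lo libraries and enriched in IP. *Steap3* and *Slc25a38* were called higher in RNA-seq, and their IP over input log2 fold changes were 0.01 and -0.18. *Ftl1* was called higher in RNA-seq at an IP over input log2 fold change of -0.84. *Aco1* was enriched in IP and was not called in RNA-seq, at a log2 fold change of 0.21. Since no IP was made from *Mettl3*-deficient cells in the libraries analysed here, loss of m6A on these transcripts was not measured.

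Libraries of the same labelled cells made in different ways gave different levels for these genes. *Tfrc* ranked 189 among genes in RNA-seq control libraries (678 CPM) and 3810 in SLIM-seq input (34.5 CPM), a 19.7-fold lower level. *Aco1* was 29.6-fold, *Ireb2* 7.74-fold, *Slc40a1* 7.61-fold, *Steap3* 5.09-fold and *Slc11a2* 2.21-fold lower in input. *Slc25a38* and *Slc25a37* differed by factors of 1.19 and 0.968, and *Fth1* and *Ftl1* were 1.60-fold and 3.76-fold higher in input, where *Ftl1* ranked 2. The short ferritin transcripts (0.929 and 0.736 kb) were thus high in SLIM-seq, and the 6 genes at least 2.21-fold lower there had transcripts of 2.90 to 5.77 kb, although *Slc25a37*, at 4.17 kb, was not lower. Over 9519 genes above 1 CPM in both, the median ratio of input to RNA-seq control was 0.648. Across these genes, Spearman's rho between this ratio and transcript length was -0.61. The IP over input log2 fold change rose with length (rho 0.33 over 11447 genes), with a median of -0.17 over 1004 genes under 1 kb, the class of both ferritin chains, and 0.32 over 3750 genes of 3 to 6 kb, the class of *Slc25a37* and *Aco1* but also of *Tfrc*, *Slc11a2*, *Slc40a1* and *Ireb2*, which were not called. The part of length in the enrichment of these genes was not tested.

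**Figure D5:**
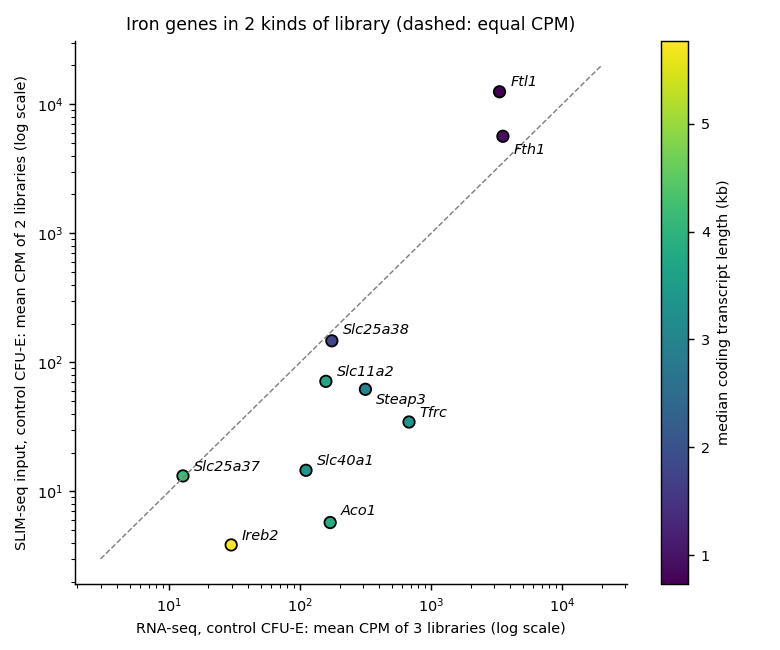
Mean CPM of each iron gene in RNA-seq control libraries (horizontal, log scale) and in SLIM-seq input (vertical, log scale), coloured by transcript length, with a dashed line at equal CPM. *Ftl1* and *Fth1*, the shortest, lie above the line and *Tfrc* and *Aco1* farthest below it.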

How the data were processed

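Groups and replicate numbers came from the labels, and 10 libraries with values were used, while 6 ProE samples were not analysed here. Smart-seq2 was used for RNA-seq. SLIM-seq was used for IP and input, an anti-m6A precipitation followed by libraries amplified from the 3′ end. The authors filtered reads with fastp (0.23.4), quantified transcripts with Kallisto (0.48.0) on mm10 and summed to genes with tximport. The deposited tables hold unnormalized gene counts as the authors estimated them (expected counts). The submitters' processing notes also list GRCm39, and the use of strand and of molecular identifiers is not given in the sources used here. The deposited counts were whole numbers.

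The main tests used edgeR 4.0.16 in R 4.3.3 (filterByExpr, TMM, glmQLFit and glmQLFTest), with one fit per experiment over all genes. CPM were scaled by TMM. Standard errors were the absolute log2 fold change over the square root of F. A call in RNA-seq needed a fold of at least 1.5 and an adjusted p under 0.05, the thresholds of the study, whose TPM filter was run as an alternative. Replicate error, with a biological coefficient of variation of 19.1% and 21.9%, set the precision. Separate animals are not stated for replicates, so that p-values measure the spread between these samples. Positions, lengths, UTRs and shared 31-base words came from GENCODE vM21 on GRCm38, in which 100% of 16010 symbols matched. Scripts were tested on simulated data. The 10 genes, the lists and the tests were chosen with earlier results of these data known. Named genes were the 10, *Mettl3*, *Kit*, the called genes with the largest change and defining genes of each iron list, the nearest 3 patterns of *Tfrc* and *Slc25a37*, and the highest markers. A gene named by this rule is not reported here. *Slc4a1*, *Adgre1*, *Lyz2* and *Cd68* were named after their values were seen. Alternatives were DESeq2 1.42.0, other normalizations and filters, a test against the fold, TMM without globin genes, a replicate block and leaving out each library. Plots used matplotlib 3.10.9 under Python 3.11.15.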

Additional observations from a re-analysis of the deposited data

How the results depend on the processing

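In RNA-seq, the number of the 10 genes called higher (4) was 3 to 4 under normalizations, filters, DESeq2 and the replicate block, and 3 to 4 with a library left out, and *Slc25a37* and *Steap3* were called under all 15 alternatives. Testing against the fold of 1.5 left 2 of the 10, and 6 higher and 1 lower of the other iron genes. Over all 11979 tested genes it left 665 higher and 482 lower, against 1453 and 1178 in the main test. The other iron genes called were 10 to 16 higher and 4 to 5 lower with a library left out. *Ftl1* lost its call under upper quartile scaling (log2 fold change 0.55), without a low-count filter (0.57), in the test against the fold, and without either of 2 libraries. In the m6A experiment, the genes called lower in IP (1) were 2 under DESeq2, 2 with library sizes alone and 0 with upper quartile scaling, and *Ireb2* was left out by the TPM filter. With a library left out, 0 to 3 were enriched and 0 to 2 lower, and the single library left on that side was assumed to vary like the others. Against TMM, library sizes alone and upper quartile scaling moved the median log2 fold change of all genes from 0.06 to 0.21 and 0.18, and enriched genes from 50.1% to 60.6% and 65.8% of the calls.

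Replicate numbers were not taken as pairing. Same-numbered RNA-seq libraries correlated at 0.034, -0.017 and -0.072 and the m6A pairs at 0.205, and RNA-seq libraries did not each correlate best with their own number. With the number as a block, 4 of the 10 were called higher and 0 lower in RNA-seq, with 12 and 5 of the other iron genes. Of all 11979 genes tested in RNA-seq, the block called 1370 higher and 1125 lower. In m6A, 3 of the 10 were enriched and 2 lower, with *Tfrc* and *Ftl1* added. Of all 11447 genes tested in m6A, the block called 1783 enriched and 1755 lower, against 904 and 900 without it. The lowest counts of the 10 genes in the m6A libraries were those of *Ireb2* and *Aco1*, at 57 to 861.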
